A study of Mus musculus with 16 samples.

Results

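The region examined is a stretch of mouse chromosome 1 (mm10, chr1:107000000-108500000) that holds most of a cluster of clade B serpin genes, Serpinb10 among them. Its members were all ATAC-seq peaks of the deposited table that overlap this window, which gave 3 of 73442 peaks. ATAC-seq reads out open chromatin through the insertions of a transposase, and each value is a normalised read count, that is, the reads in a peak divided by a size factor for the library. The window was chosen because accessibility at Serpinb10 had been seen to be lost in mice without CNS4, so all differences between genotypes within it are given as a description, without a test. The comparison of cell populations within CNS4-sufficient mice was not used in that choice and was tested.

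Libraries came from the thymus of C57BL/6J mice carrying a Foxp3-GFP reporter allele on their X chromosome. Both genotypes carried the reporter: CNS4-sufficient mice were CNS4FL/YFoxp3GFP/Y (mice T9 and T10) and CNS4-deficient mice were CNS4KO/YFoxp3GFP/Y (mice T7 and T8), where CNS4 is an element near the Foxp3 gene. From each of the 4 mice, 4 populations of CD4 single positive cells were sorted, which gave 8 groups of 2 libraries: Treg cells (Foxp3-GFP+), preTreg cells (CD25+, Foxp3-GFP-), mSP cells (CD25-, high TCRβ, low CD24, labelled mature) and smSP cells (CD25-, low TCRβ, high CD24, labelled semimature). The labels give no ages, and say neither in which cells nor when the CNS4 deletion arose. With 2 mice per genotype, whatever else differs between the 2 pairs of mice cannot be told apart from the genotype.

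Serpins are protease inhibitors that trap their target by a change of shape, and the clade B members mostly stay inside the cell. In the mouse they lie in a cluster on chromosome 1 and a larger one on chromosome 13, which arose by gene duplication. Serpinb10, also called bomapin, is known from bone marrow and myeloid cells. Of its neighbours, Serpinb2 encodes plasminogen activator inhibitor 2, a urokinase inhibitor made by activated macrophages, the Serpinb3 genes and Serpinb13 encode inhibitors of cathepsins, and Serpinb8 inhibits furin, as known for the human protein.

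The window holds 27 annotated genes, of which 10 encode proteins and all 10 are Serpinb genes, yet just 1 gene, Serpinb10, has a peak within its body. The first peak, chr1:107481633-107481767, lies between genes, 28.9 kb from Serpinb7 and 19.1 kb from Serpinb2. The Serpinb10 peak, chr1:107533818-107534102, lies within the gene body, with its summit 4.95 kb downstream of the gene start on the plus strand. A distal peak, chr1:108040935-108041207, lies between genes, 507 kb beyond the Serpinb10 peak, 432 kb from Serpinb8 and 13.7 kb from the uncharacterised lncRNA gene LOC115487113. Exon and intron positions were not used here.

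No peak overlapped any of the 15 promoter entries of 12 genes that RefSeq places in the window. The 27 annotated genes of the window also include genes without such an entry, whose starts were not checked this way. The 250 bases before the Serpinb10 start (GRCm38.p6, RefSeq, chr1:107528753-107529002, plus strand) are shown because Serpinb10 is the gene that carries the main peak, while its own start carried none. Capitals mark matches on either strand to GGAA, the core read by ETS factors, and to GATAA, read by GATA factors.
Serpinb10 promoter: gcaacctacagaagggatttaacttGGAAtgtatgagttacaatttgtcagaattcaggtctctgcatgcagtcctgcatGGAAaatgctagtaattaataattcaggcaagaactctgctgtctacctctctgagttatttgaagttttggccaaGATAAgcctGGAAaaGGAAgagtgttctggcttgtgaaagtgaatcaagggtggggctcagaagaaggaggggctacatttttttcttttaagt
This promoter has 4 matches to GGAA and 1 to GATAA, and 0 to TGTGGT (RUNX), TGACTCA (AP-1) or CANNTG (E-box). None of the marked matches overlap. Among 32851 promoter stretches of the same length, GGAA is found in 93.4%, GATAA in 22.6%, TGTGGT in 14.0%, TGACTCA in 4.46% and CANNTG in 66.2%. The matches describe letters and not bound sites.

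Across the series, libraries had 5585827 to 11437401 reads in peaks, 6848693 to 11437401 in CNS4-sufficient and 5585827 to 8899473 in CNS4-deficient mice. The peak taken as that of the deleted CNS4 was chrX:7570739-7571052. It had 0 reads in all 8 CNS4-deficient libraries and 47.7 to 140 normalised reads in the others. This peak was picked as the tested peak with the lowest mean genotype difference under these labels, and not by coordinates of CNS4. Its values are therefore no separate check of the genotype labels. The Treg and preTreg marker genes (Foxp3, Il2ra, Ctla4 and Ikzf2, with 89 peaks) summed to 8791 to 9413 in the Treg libraries and 4922 to 6572 in all others, and all 6 CD4 T cell marker genes had peaks. The mSP and smSP labels were in doubt: Cd24a encodes CD24, on which mSP cells were sorted as low, yet its 9 peaks summed to more in the library titled mSP than in that titled smSP in 4 of 4 mice, while S1pr1, the egress receptor of mature cells, did so in 0 of 4. For T8 the description of these libraries also names the opposite population from the title. Both populations are therefore called by their titles alone, and the mSP and smSP libraries of T8 were also exchanged as an alternative.

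The Serpinb10 peak was open in all 4 populations of CNS4-sufficient mice and held 8 reads or fewer in every library of CNS4-deficient mice. In Treg cells its normalised read count was 40.5 and 42.1 in the CNS4-sufficient and 3.65 and 2.88 in the CNS4-deficient mice (41.3 ± 1.16 and 3.26 ± 0.543, mean ± SD, n = 2 each). In preTreg cells it was 122 and 148 against 7.39 and 5.51 (135 ± 18.2 and 6.45 ± 1.32, n = 2 each). The 2 genotypes were thus far apart in both CD25-related populations, and both deficient mice were low. In the libraries labelled mSP the values were 170 and 133 against 2.29 and 2.87 (151 ± 26.5 and 2.58 ± 0.407, n = 2 each), and in those labelled smSP 122 and 134 against 0 and 5.43 (128 ± 8.60 and 2.72 ± 3.84, n = 2 each). The CNS4-deficient mean was thus 7.91% of the sufficient one in Treg cells, 4.76% of it in preTreg cells, 1.71% of it for mSP and 2.12% for smSP.

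Counted as reads, the Serpinb10 peak held 1037 reads in the 8 CNS4-sufficient libraries and 29 in the 8 CNS4-deficient ones (95% Poisson interval of the 29 reads 19.4 to 41.6, which covers counting error only). Single CNS4-deficient libraries had 0 to 8 reads, and 3 of 8 had more than 3, so the site was not empty in the way that the deleted CNS4 peak was. On the log2(value + 1) scale the difference, deficient minus sufficient, amounted to -3.32 (Treg), -4.20 (preTreg), -5.40 (mSP) and -5.67 (smSP). The smaller figure in Treg goes with the lower level there in sufficient mice, since deficient levels lay between 0 and 7.39 in every population. Where values are this low the log2 figure depends on the pseudocount, and with a pseudocount of 5 the Treg figure was -2.49.

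The distal peak also lost most of its accessibility. In preTreg cells, where it was highest, it was 149 and 153 in CNS4-sufficient and 1.85 and 4.60 in CNS4-deficient mice (151 ± 2.59 and 3.22 ± 1.94, n = 2 each), and in Treg cells, where it was lowest, 19.2 and 27.6 against 10.9 and 5.76 (23.4 ± 5.93 and 8.35 ± 3.67, n = 2 each). In mSP libraries it was 105 and 95.9 against 3.44 and 10.0 (100.3 ± 6.19 and 6.74 ± 4.67), and in smSP libraries 71.4 and 59.6 against 8.06 and 2.17 (65.5 ± 8.29 and 5.12 ± 4.16, n = 2 each). No CNS4-deficient library reached the lowest sufficient one, since the former spanned 1.85 to 10.9 and the latter 19.2 to 153. The log2 difference amounted to -1.42 (Treg), -5.25 (preTreg), -3.85 (mSP) and -3.63 (smSP), and the peak held 774 reads in the sufficient and 40 in the deficient libraries.

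The peak between Serpinb7 and Serpinb2 was weak and lost only part of its signal. In Treg cells it was 20.2 and 19.3 in CNS4-sufficient and 3.65 and 14.4 in CNS4-deficient mice (19.8 ± 0.642 and 9.02 ± 7.60, n = 2 each), and in preTreg cells 31.7 and 45.0 against 11.1 and 13.8 (38.3 ± 9.42 and 12.4 ± 1.91). In mSP libraries it was 26.4 and 52.0 against 22.9 and 23.0 (39.2 ± 18.1 and 23.0 ± 0.0105), and in smSP libraries 55.2 and 38.4 against 24.2 and 17.4 (46.8 ± 11.9 and 20.8 ± 4.80, n = 2 each). Within each population the 2 genotypes did not overlap, but over all libraries they did, with 19.3 to 55.2 in sufficient and 3.65 to 24.2 in deficient mice. In mSP the nearest sufficient and deficient libraries were 1.15-fold apart. The log2 differences were -1.30, -1.54, -0.67 and -1.13 in Treg, preTreg, mSP and smSP. Single libraries decided those of Treg, which was -0.43 without Treg_KO 1 and -2.16 without Treg_KO 2, and of mSP, which was -0.19 without mSP_FL 2 and -1.15 without mSP_FL 1.

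**Figure D1:**
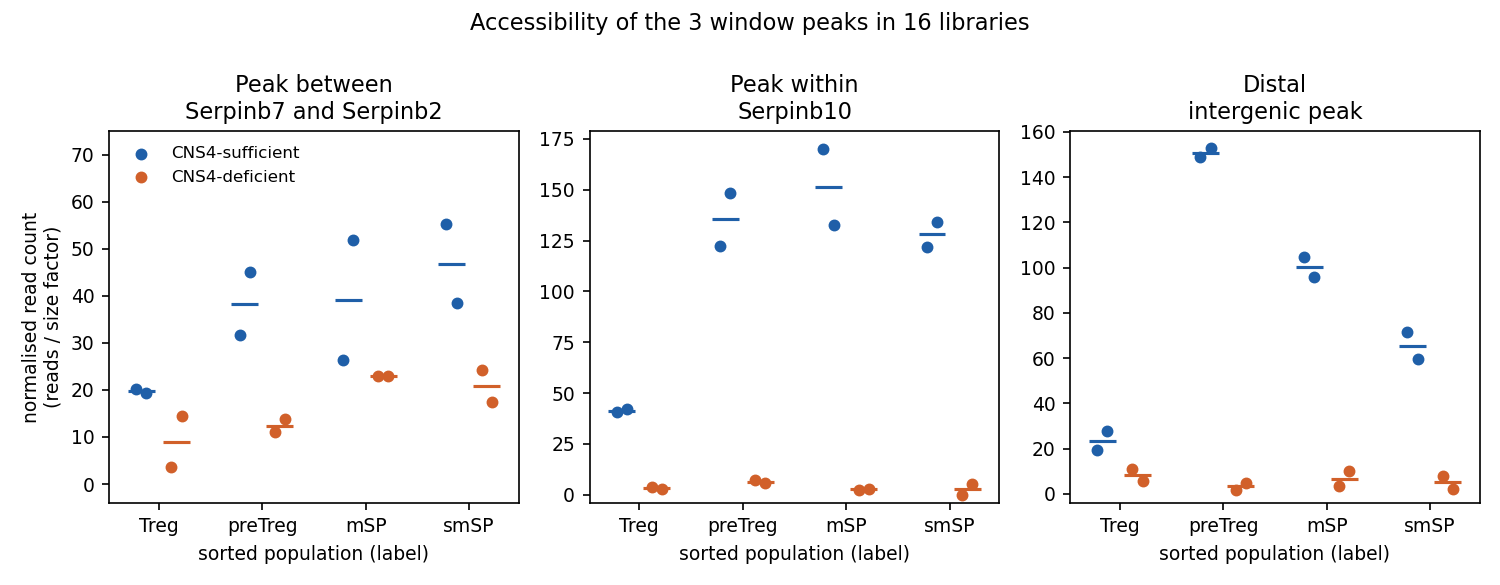
Normalised read count (y axis, reads divided by the library's size factor) of the 3 window peaks in each of 16 libraries, by sorted population (x axis) and genotype; points are single libraries, 1 per mouse, and lines are means of 2. CNS4-deficient libraries lie at 0 to 7.39 for the Serpinb10 peak and at 1.85 to 10.9 for the distal peak, while the peak between Serpinb7 and Serpinb2 keeps 3.65 to 24.2.

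The mice of a genotype had similar levels. Averaged over the 4 populations, the Serpinb10 peak was 114 in T9 and 114 in T10, and 3.33 in T7 and 4.17 in T8. The distal peak was 86.1 and 84.0 in the sufficient and 6.07 and 5.64 in the deficient mice, and the peak between Serpinb7 and Serpinb2 was 33.4 and 38.7 against 15.5 and 17.1. For each of the 3 peaks the spread between the mice of a genotype was smaller than the distance between genotypes. Over all libraries the sufficient mean was 30.4-fold the deficient one at the Serpinb10 peak, 14.5-fold at the distal peak and 2.21-fold at the weak peak.

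In all 4 populations all 3 window peaks were lower in both deficient mice than in both sufficient mice. Since 2 libraries against 2 often separate, the share of all tested peaks with this pattern was 22.1% for Treg, 20.4% for preTreg, 19.3% for mSP and 18.8% for smSP, and 0.489% of peaks had it in all 4 populations. A separation of all 8 sufficient from all 8 deficient libraries, downwards, was found for 2 of the 3 window peaks and for 24 of 73140 tested peaks (0.0328%), and upwards for 0 of the 3 and for 28 (0.0383%). Ranked by the mean log2 difference of the 4 populations, the lowest tested peak, at -6.17, was the one taken as that of CNS4 for this reason. The Serpinb10 peak came at rank 2 with -4.65 and the distal peak at rank 3 with -3.54. The peak between Serpinb7 and Serpinb2 came at rank 35 with -1.16. In the limma fit over the whole table the number of window peaks called lower, and called at all, was 1 (Treg), 2 (preTreg), 2 (mSP) and 2 (smSP), against 1.08%, 0.0520%, 0.0834% and 0.0479% of all tested peaks; nothing is read from these counts, since the window was chosen on this contrast.

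How far the difference reaches along the chromosome is set by how few peaks there are. The nearest peak outside the window on the low side, chr1:106883960-106884125, lies 612 bp outside Serpinb5, which encodes maspin, a clade B serpin without inhibitory activity, and 598 kb from the first window peak. It was 59.3 on average in sufficient and 48.9 in deficient libraries, with ranges of 25.7 to 80.0 and 25.5 to 72.8 that overlapped. In Treg cells it was 50.3 ± 4.73 against 26.2 ± 0.947 (n = 2 each), a log2 difference of -0.91, and in smSP 67.6 ± 10.9 against 68.0 ± 6.84, a difference of 0.01. On the other side the next peak, chr1:111864068-111864191 in Dsel, lies 3.82 Mb beyond the distal peak and was 147 on average in sufficient and 135 in deficient libraries, with ranges of 95.1 to 227 and 87.3 to 204. The large loss was therefore seen at 2 peaks 507 kb apart, inside a stretch of 4.98 Mb without other peaks than the 3 of the window.

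The megabase before the window holds, at least in part, the coding genes Zcchc2, Phlpp1, Bcl2, Kdsr, Vps4b, Serpinb5, Serpinb12 and Serpinb13 and had 89 tested peaks, and the megabase after it had 0. Mean log2 differences of the 89 peaks lay between -0.61 and 0.43, with a median of -0.05 beside 0.00 for all tested peaks (-0.00419), and 0 of 89 separated all 8 sufficient from all 8 deficient libraries. The number of the 89 called between genotypes by limma was 2 (Treg), 0 (preTreg), 1 (mSP) and 0 (smSP), where 1.77%, 0.409%, 0.246% and 0.0848% of all tested peaks were called. The strongest peak of Bcl2, the survival gene, was 672 on average in sufficient and 636 in deficient libraries, and that of Vps4b, an ATPase of membrane scission, 476 and 443. Chromosome 1 held a median of 28 peaks per 1.5 Mb, and 33 of its 131 such tiles had 3 peaks or fewer, so sparse tiles like the window were not rare.

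**Figure D2:**
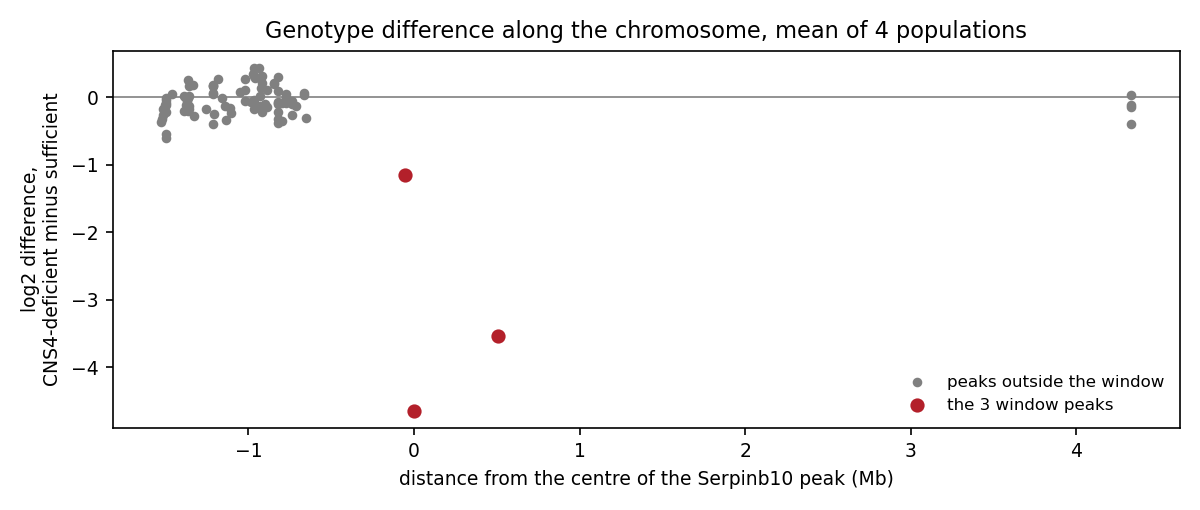
Mean log2 difference of 4 populations (y axis, CNS4-deficient minus CNS4-sufficient, log2(value + 1) scale) against the distance in Mb from the centre of the Serpinb10 peak (x axis); each point is 1 peak, with the 3 window peaks in red. The window peaks lie at -1.16, -4.65 and -3.54, and the 89 peaks of the megabase before it between -0.61 and 0.43.

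Between populations of CNS4-sufficient mice, the Serpinb10 and distal peaks were less open in Treg cells than in preTreg cells. The log2 difference, Treg minus preTreg, was -1.68 (SE 0.51, limma adjusted p = 0.0173) at the Serpinb10 peak and -2.66 (SE 0.47, limma adjusted p = 7.49e-05) at the distal peak, and both sufficient mice showed it. At the peak between Serpinb7 and Serpinb2 it was -0.90 (SE 0.42, limma adjusted p = 0.134) and was not called, but was called by edgeR (adjusted p = 0.0422) and by limma with the CNS4-sufficient groups alone (0.0248) or both genotypes averaged (0.0482). This made 2 of 3 window peaks lower in Treg, where 10.3% of all tested peaks were lower and 21.7% differed either way. The fold at the Serpinb10 peak varied little, from -1.82 to -1.55 when 1 of the 4 compared libraries was left out, but its limma call depended on the setting. With the spread of all 8 groups the call was lost without any 1 of those 4 libraries (limma adjusted p from 0.0617 without preTreg_FL 1 to 0.126 without preTreg_FL 2, with 0.0959 and 0.0791 without Treg_FL 1 and Treg_FL 2) and at a pseudocount of 0.5 (log2 difference -1.70, limma adjusted p = 0.111). The adjusted p was 0.000248 and 0.000540 without the smSP library of T7, which held 0 reads, or of T8, 8.03e-09 with the CNS4-sufficient groups alone in the limma fit, 2.26e-08 by edgeR and 1.89e-07 by DESeq2. The distal peak kept its call in each of these settings, but not with both genotypes averaged (log2 difference -0.74, limma adjusted p = 0.0919).

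The order of levels in sufficient mice differed between these peaks. For the Serpinb10 peak the mean was 151 in mSP, 135 in preTreg, 128 in smSP and 41.3 in Treg, and the differences of preTreg minus mSP (-0.16, SE 0.51, limma adjusted p = 0.829) and mSP minus smSP (0.23, SE 0.51, limma adjusted p = 0.862) were within their errors. For the distal peak the mean was 151 in preTreg, 100.3 in mSP, 65.5 in smSP and 23.4 in Treg. The values of each population did not overlap with those of the next in that order, but the difference of preTreg minus mSP was 0.59 (SE 0.47, limma adjusted p = 0.320; edgeR adjusted p = 0.0216) and that of mSP minus smSP 0.61 (SE 0.47, limma adjusted p = 0.522; edgeR adjusted p = 0.0725). At the weak peak between Serpinb7 and Serpinb2 neither difference was called (0.03 and -0.31, SE 0.42 each, limma adjusted p = 0.967 and 0.763). By limma 0 of 3 window peaks were called in either comparison, where limma called 44.8% and 5.49% of all tested peaks. The edgeR test called 1 of 3, the distal peak, for preTreg against mSP, and 0 for mSP against smSP. At an unadjusted p under 0.05 the count was 0 of 3 by limma and 1 of 3 by edgeR and by DESeq2 in each comparison. Shares of all tested peaks by edgeR, by DESeq2 or at an unadjusted p are not given here, so nothing is read from those counts.

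In deficient mice little of this order could be seen, because levels were near the limit of a few reads. The Serpinb10 peak averaged 6.45 in preTreg, 3.26 in Treg, 2.72 in smSP and 2.58 in mSP, and the distal peak 8.35 in Treg, 6.74 in mSP, 5.12 in smSP and 3.22 in preTreg. The weak peak stayed at 23.0 in mSP, 20.8 in smSP, 12.4 in preTreg and 9.02 in Treg, so the Treg mean was lowest there in both genotypes. In deficient mice this place below preTreg rests on Treg_KO 1 (3.65), as Treg_KO 2 (14.4) lay above both preTreg libraries (11.1 and 13.8).

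Over all 16 libraries the 5 tested peaks outside the window whose log2 values followed the Serpinb10 peak most closely were the deleted CNS4 peak, within the body of Ppp1r3f, and 4 peaks at or beside genes of heat shock proteins. Pearson's r was 0.911 for the CNS4 peak and 0.911 for chr17:45573180-45573471 in Gm35399. It was 0.899 for chr17:45572417-45573112 in Hsp90ab1, which encodes a constitutive cytosolic chaperone and lies next to Gm35399. For chr9:40805788-40805883 and chr9:40806389-40806616 it was 0.908 each. These 2 peaks lie 586 and 1187 bp outside Hspa8, which also encodes a constitutive chaperone. Within the window r was 0.879 for the distal and 0.629 for the weak peak. These points share their libraries and their genotypes, so r is a description. Within sufficient mice the CNS4 peak followed another order. It was highest in Treg cells, at 182% and 152% of its sufficient mean, where the Serpinb10 peak was lowest, at 35.5% and 36.9%. The size of the difference was not alike: the sufficient mean was 1.41-fold the deficient one for the Gm35399 peak, 1.65-fold for the Hsp90ab1 peak and 2.72-fold and 1.98-fold for the Hspa8 peaks. These heat shock gene peaks were lower on average in deficient mice, as the Serpinb10 peak was. A choice by r with a peak so much lower in deficient mice favours this direction, so it is no separate result. The part of these heat shock gene peaks in the difference of the Serpinb10 peak was not tested.

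**Figure D3:**
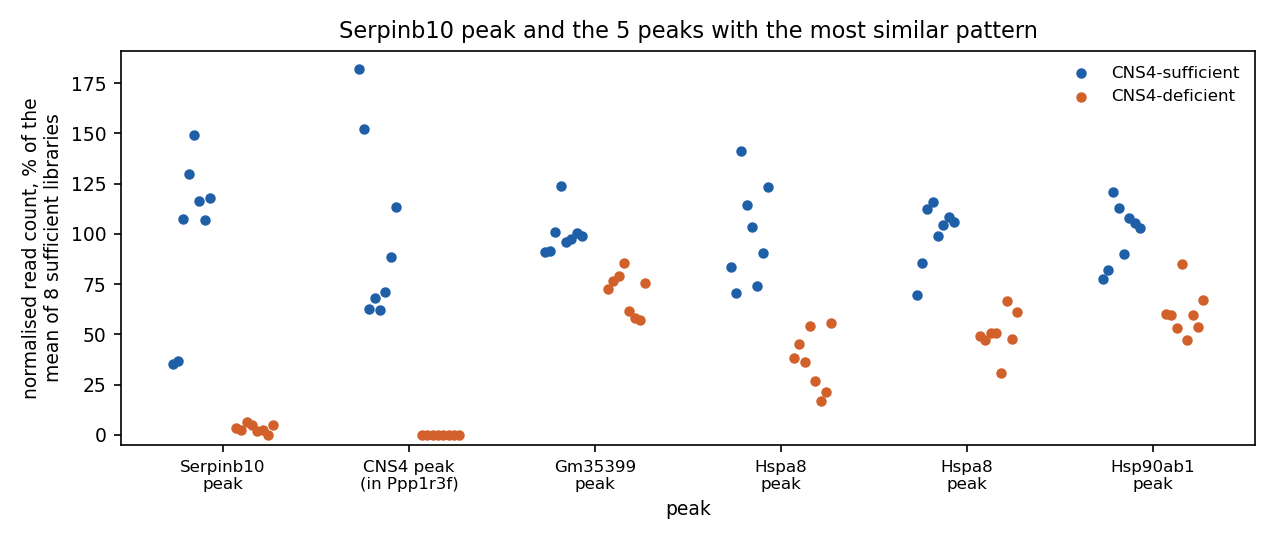
Normalised read count as a percentage of the mean of the 8 CNS4-sufficient libraries (y axis) for the Serpinb10 peak and 5 others (x axis), where each point is 1 library. The 5 had the highest Pearson's r with it over all 16 libraries of both genotypes, a choice that favours peaks that are lower in deficient mice. Sufficient and deficient libraries separate at each peak but that of Hsp90ab1, where sufficient libraries span 496 to 771 normalised reads and deficient ones 301 to 542, against 0 to 7.39 in deficient libraries at the Serpinb10 peak.

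The clade B serpin genes of chromosome 13 were read for comparison. Of 15 genes listed, 6 had a tested peak, 11 peaks in all, and 1 of the 11 was lower in deficient Treg cells, where 1.08% of all tested peaks were, and 0 were called in the other populations, with medians of 0.22, -0.23, 0.06 and -0.05 beside 0.00 over all tested peaks in each (0.00135, 0.00155, -0.00249 and 0.00407). The 1 peak was that of Serpinb9, the granzyme B inhibitor, at 63.1 ± 3.44 in sufficient and 37.2 ± 2.40 in deficient Treg cells (n = 2 each; log2 difference -0.75, limma adjusted p = 0.0488). In the same Treg libraries the strongest peak of Serpinb6a was 103.7 ± 2.16 and 129.5 ± 16.4, and that of Serpinb6b 67.0 ± 6.86 and 82.8 ± 1.64, neither of them called (limma adjusted p = 0.443 and 0.543). In sufficient mice 2 of the 11 peaks were lower and 0 higher in Treg than in preTreg, where 10.3% of all tested peaks were lower and 11.4% higher. In preTreg against mSP 4 were higher and 1 lower, where 20.9% of all tested peaks were higher and 23.8% lower. Serpinb6b, for example, was 117.7 ± 12.9 in preTreg and 58.6 ± 5.86 in mSP (n = 2 each; log2 difference 0.99, limma adjusted p = 0.000216).

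Of 17 protease genes listed as serpin targets or their partners, 11 had a peak, 40 in all, and Gzmb, Gzmc, Gzmm, Ctsg, Elane and Prtn3 had none. Between genotypes 1 of the 40 peaks was higher in preTreg and 0 were called elsewhere, with medians of 0.07 (Treg), 0.01 (preTreg), 0.07 (mSP) and -0.02 (smSP), while 0.693%, 0.357%, 0.163% and 0.0369% of all tested peaks were higher in deficient mice. In sufficient mice 2 were higher and 8 lower in Treg than in preTreg, and 10 higher and 9 lower in preTreg than in mSP. Over all tested peaks 11.4% were higher and 10.3% lower in Treg than in preTreg, and 20.9% higher and 23.8% lower in preTreg than in mSP, so the latter counts of the 40 lie near the background. Prf1, the perforin gene, was 70.2 ± 15.7 in preTreg and 213 ± 43.4 in mSP (n = 2 each; log2 difference -1.59, limma adjusted p = 1.55e-08), and Casp1, an inflammatory caspase gene, was 141 ± 9.14 and 8.24 ± 2.78 (3.97, limma adjusted p = 3.75e-09). The strongest Gzmk peak, 2591 bp outside the gene of granzyme K, was 103.9 ± 0.867 and 0.851 ± 1.20 (6.00, limma adjusted p = 3.34e-08).

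Because Serpinb10 and Serpinb2 are genes of myeloid cells, markers of other cells were read beside the window. Of 10 myeloid marker genes 4 had a peak, 15 peaks in all, and Lyz2, Csf1r, Cd14, Fcgr3, Itgax and Adgre1 had none. Their summed level was 668 to 896 in sufficient and 657 to 909 in deficient libraries. Between genotypes 0 of 15 peaks were called in any population. Of all tested peaks 1.77% (Treg), 0.409% (preTreg), 0.246% (mSP) and 0.0848% (smSP) were called, so 15 peaks are too few for a count of 0 to tell anything. For B cells, the peaks of Cd79a and Ebf1 summed to 123 to 354 in sufficient and 178 to 375 in deficient libraries, and Ms4a1 and Pax5 had no peak. For thymic epithelium 2 of 5 had a peak, with sums of 124 to 187 and 147 to 171, and Krt5, Krt8 and Psmb11 had none. The ranges of the 2 genotypes overlapped for each of these lists, while those of the Serpinb10 peak, which was chosen for its genotype difference, did not. Within single populations, however, several sums separated the genotypes. Separation of 2 libraries from 2 is common. Of 73140 tested single peaks, 33160 (Treg), 30584 (preTreg), 28862 (mSP) and 28158 (smSP) separated in either direction. The myeloid sums were lower in both deficient mice in mSP (657 and 679 against 717 and 776), the direction of the window, and higher in Treg cells (721 and 772 against 668 and 705). The B cell sums were higher in both deficient mice in Treg (272 and 293 against 227 and 224) and preTreg cells (178 and 190 against 123 and 165). The epithelial sums were higher in preTreg cells (164 and 147 against 139.6 and 140.3) and slightly lower in mSP (165 and 170.8 against 180.4 and 171.2). The sums of the CD4 T cell markers were higher in both deficient mice in preTreg, mSP and smSP. The part of these differences in that of the window was not tested.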

How the data were processed

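Each deposited value is a signal: the authors' count of reads in a peak over a library-wide size factor, as the values themselves show, since in each of the 16 columns 100% are whole multiples of what 1 read is worth (tolerance 0.001 reads). Reads were recovered this way (size factors 0.697 to 1.45). Per the submitters' processing notes, Trimmomatic 0.36, STAR 2.5.4b, SAMtools 1.10, Genrich, R 3.6.3 and DESeq2 1.24.0 were used on mm10; any shift of reads for the transposase and any filter on peaks are not given in the sources used here. Starts were raised by 1 base to count from 1.

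Values were tested as log2(value + 1), which understates changes of weak peaks, with limma 3.58.1 in R 4.3.3 (trended prior, robust). Peaks averaging under 10 across libraries were dropped, leaving 73140, with all 3 window peaks among them. The fit had 1 mean per group, and p-values were adjusted by Benjamini-Hochberg over all tested peaks (threshold 0.05). Alternatives on recovered reads were edgeR 4.0.16 (quasi-likelihood test) and DESeq2 1.42.0. Population contrasts compared CNS4-sufficient groups, with the spread of all 8. A peak was given to a gene it overlaps or the nearest within 50 kb (RefSeq, GRCm38.p6). Same-numbered libraries of a genotype come from 1 mouse by the labels; their deviations correlated between -0.00919 and 0.0879. Members, lists and tests were chosen with earlier results of these data known. The named genes are the window peaks, the 5 most similar peaks and the strongest peak per listed gene; Cd24a and S1pr1 were added to check labels. Scripts were tested on simulated data. No genome sequence was used here, so the peaks' own sequences are not shown. A marker gene of the B cell list is not reported here.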

Additional observations from a re-analysis of the deposited data

How the results depend on the processing

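The window's genotype differences kept their sign under every alternative run. The median over the 3 peaks moved by more than the replicate spread in preTreg, from -4.20 to -3.61 at a pseudocount of 5 and -4.68 after quantile normalization, and with the T8 libraries assigned by description from -3.85 to -4.75 in mSP and from -3.63 to -2.73 in smSP. Without 1 library it ranged from -2.16 to -1.33 (Treg), -4.38 to -4.02 (preTreg), -4.51 to -3.20 (mSP) and -4.32 to -2.87 (smSP), and the Treg figure of -1.42 became -2.16 without Treg_KO 2. All 3 window peaks also separated the genotypes at equal library totals. Widened by 1 Mb on each side, the counts in either direction were 44 (Treg), 33 (preTreg), 48 (mSP) and 44 (smSP), as more peaks enter. Of the 89 tested peaks that enter, 41, 30, 45 and 41 separated in these populations. Such separation is common, with 33160, 30584, 28862 and 28158 of all 73140 tested peaks. The widened counts are therefore not read as a spread of the loss. The count of window peaks called between genotypes in Treg was 2 by edgeR and 1 to 2 without 1 library, and in the other populations it stayed at 2 without 1 library and was 3 (preTreg), 2 (mSP) and 2 (smSP) by edgeR. DESeq2 gave no adjusted p for window peaks in preTreg, mSP and smSP. Nothing is read from these counts of calls, since the window was chosen on this contrast. The shares of all tested peaks called in these settings are also not given here.

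For Treg against preTreg 1 peak was called at a pseudocount of 0.5 and 1 without any compared library, and 3 with the CNS4-sufficient groups alone and by edgeR (2 as reported); for preTreg against mSP 1 was called with the CNS4-sufficient groups alone and 1 by edgeR (0 as reported), and for mSP against smSP 0 without any compared library. The shares of all tested peaks called between populations in these settings are not given here, so nothing is read from these counts. Leaving out the smSP library of T7 was chosen after seeing the data. With both genotypes averaged, preTreg minus mSP turned to -0.41, 0.45 and -0.11 at the weak, Serpinb10 and distal peaks. The deficient libraries enter this contrast, with preTreg and mSP means of 12.4 and 23.0, 6.45 and 2.58, and 3.22 and 6.74 at these peaks. The cause was not tested. At the weak peak, where the difference was 0.03, it also turned to -0.01 (-0.00657) at equal totals, -0.06 (-0.0621) by edgeR, -0.03 (-0.0292) by DESeq2, and -0.22 without preTreg_FL 2; without 1 compared library it ranged from -0.45 (without mSP_FL 1) to 0.50. For the Serpinb10 peak this range was -0.33 to 0.02 (0.0223), and for the weak peak between mSP and smSP -0.78 to 0.17, both turning without mSP_FL 1; the cause was not tested. The replicate block by mouse changed no call of window peaks between populations (2, 0 and 0), and that by replicate number, whose deviations correlated between 0.00590 and 0.0525 across genotypes, none between genotypes (1, 2, 2 and 2).

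Depth limits the deficient libraries, where a window peak rested on 0 to 20 reads.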

Other observations

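In all, 10 tested peaks fell by 2 or more on the log2 scale, averaged over the populations. After the CNS4 peak and the 2 window peaks, ranks 4 and 5 were at chr17:34968298-34968871 and chr17:34969217-34969364, beside and within Hspa1a, a gene of an inducible heat shock protein, with means of 171 and 31.0 in CNS4-sufficient and 13.8 and 2.74 in CNS4-deficient libraries. Rank 6 was at chr12:22030767-22031023 in the predicted gene Gm9282 (89.3 and 46.5). Rank 7 was at chr17:34955912-34956051 beside Hspa1b, another inducible heat shock gene (29.3 and 3.66), and rank 8 at chr12:22623368-22623536 in the predicted gene Gm40864 (45.9 and 23.0). Of these 5 peaks, 1, within Hspa1a, separated all 8 sufficient from all 8 deficient libraries. No tested peak had a mean gain of that size (0 of 73140), and the 28 peaks that separated upwards rose by 0.74 on the log2 scale at most.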
